A study of Homo sapiens with 6 samples.

Results

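The 34 genes described here are targets of ATF4 other than the aminoacyl-tRNA synthetases, together with ATF4 itself. They were taken from a list of names that was chosen with earlier results of these data known. All probes of each gene on the array were collected. Of the 34 genes, 33 had at least 1 probe with their symbol, with 50 probes in all out of 30112 that carry 1 gene symbol. GPT2 had none. The genes were divided by role into amino acid and one-carbon synthesis, amino acid transport, stress transcription factors, stress effectors, and a group of secreted, surface and tRNA export genes.

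The arrays measured total RNA of U2OS, a human osteosarcoma cell line, harvested 6 days after siRNA transfection with RNAiMAX. CCAR2-silenced cells (siCCAR2) had received a pool of 4 RIBOXX siRNAs against CCAR2, a nuclear protein, and control cells (siLUC, labelled siCTRL) a control siRNA. Each condition was prepared in 3 independent samples of this single line and hybridized to Human HT12_v4 bead arrays. The siCCAR2 arrays are called D, E and F and the siLUC arrays A, B and C, after their sections on the 1 chip that held all 6, which means that chip position and CCAR2 silencing cannot be told apart.

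ATF4 is the transcriptional arm of the integrated stress response. When amino acids run short, proteins misfold in the endoplasmic reticulum, haem is lacking or double-stranded RNA is sensed, kinases phosphorylate the initiation factor eIF2, translation slows in general, and ATF4 mRNA is translated more. ATF4 then pairs with C/EBP family proteins on a composite promoter element and raises genes for making and importing amino acids, for charging tRNA and, in longer stress, for growth arrest and cell death.

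Each array detected 37.2% to 41.0% of its probes, where detected means a detection p-value under 0.01 against negative control beads, and the median bead signal lay between 105.931 and 123.352. CCAR2 itself, the silenced gene, fell to a normalized log2 signal of 9.92 ± 0.04 in siCCAR2 arrays, against 11.26 ± 0.22 in siLUC arrays (SD, n = 3 each; log2 fold change -1.34, limma adjusted p = 0.0394). This call needed all arrays but B, since without any one of the others the limma adjusted p was 0.0920 to 0.422, with log2 fold changes of -1.47 to -1.26. The 8 mesenchymal markers examined, VIM, FN1, COL6A1, COL6A2, RUNX2, CD44, THY1 and SPARC, were detected in all 6 arrays. Of 5 epithelial markers EPCAM was detected in all 6 and CDH1, KRT19, KRT5 and CLDN4 in none, and of 4 blood markers with a probe none was detected in all 6, and PTPRC, CD3E and HBB in no array. Of 3 liver markers ALB was detected in all 6 arrays and APOA1 and TTR in none. The summed bead signal of the mesenchymal list was 33688 to 44641.4 in siCCAR2 arrays and 42738.7 to 50268.1 in siLUC arrays. That of the epithelial list was 1114.51 to 1444.57 in siCCAR2 arrays and 995.606 to 1332.8 in siLUC arrays, and that of the blood list 389.627 to 458.605 in siCCAR2 arrays and 370.04 to 385.764 in siLUC arrays. The liver list summed to 404.888 to 494.885 in siCCAR2 arrays and 442.105 to 502.796 in siLUC arrays. In RNA of whole cultures, fewer cells with a transcript and less of it per cell cannot be told apart.

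The promoter element of these genes is shown first, because it is the feature that ties a gene directly to ATF4. RefSeq promoter windows of 27 of the 34 genes (GRCh38.p14, 42 windows that run from shortly before to shortly after each transcription start) were searched on both strands for TGATGNAA, the core of the C/EBP-ATF response element, in which one side is read by the C/EBP partner and the other by ATF4. PSPH, SHMT2, ALDH1L2, PYCR1, GPT2, SLC7A11 and NUPR1 had no window in the table. A match was present in 9 of 27 genes (33.3%) and in 9 of their 42 windows (21.4%), against 4.46% of 27305 genes and 3.62% of 35116 windows overall. The related cAMP response element TGACGTCA, which shares no full match with the first motif, was found in PPP1R15A alone of the 27 genes, against 2.25% of all genes. These are matches of letters and were not tested as binding sites. The stretches below surround the match in 7 genes that span the roles: an asparagine-making enzyme, a transporter, 3 transcription factors, an effector and a hormone. Each is written 5′ to 3′ on the strand on which the match, in capitals, reads TGATGNAA.
ASNS (chr7:97872449-97872496, minus strand): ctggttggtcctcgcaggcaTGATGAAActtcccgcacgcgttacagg
SLC1A5 (chr19:46784884-46784931, minus strand): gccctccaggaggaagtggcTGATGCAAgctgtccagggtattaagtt
ATF3 (chr1:212565196-212565243, plus strand): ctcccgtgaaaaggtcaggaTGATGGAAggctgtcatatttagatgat
CEBPG (chr19:33374051-33374098, plus strand): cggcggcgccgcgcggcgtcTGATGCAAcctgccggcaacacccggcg
JDP2 (chr14:75427986-75428033, plus strand): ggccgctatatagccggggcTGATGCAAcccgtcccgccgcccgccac
CHAC1 (chr15:40953242-40953289, minus strand): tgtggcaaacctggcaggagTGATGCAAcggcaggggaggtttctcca
FGF21 (chr19:48755450-48755497, minus strand): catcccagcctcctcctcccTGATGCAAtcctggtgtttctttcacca

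The match lay at positions -68 to -61 from the start in ASNS, -42 to -35 in CEBPG, -16 to -9 in JDP2 and -54 to -47 in FGF21, all close to the start. It lay farther out in SLC1A5 (-97 to -90), ATF3 (-191 to -184) and CHAC1 (-209 to -202). The windows of SLC1A4 and SLC3A2 held the other 2 matches, at -7 to 1 and at 38 to 45. All of these genes but CHAC1 and FGF21 had several windows, so their positions are counted from 1 of several starts.

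**Figure D1:**
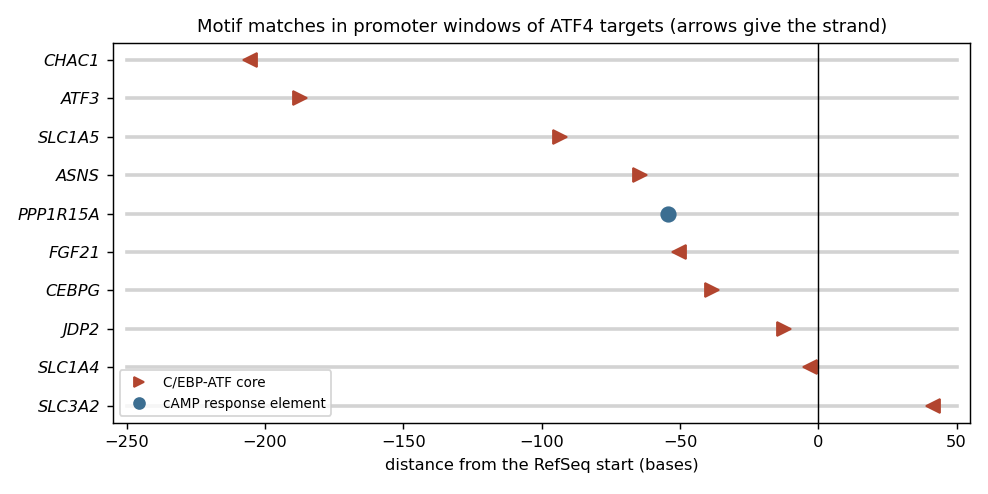
Positions of motif matches (x axis, bases from the RefSeq transcription start of the window that holds the match) in the promoter windows of the 10 genes with a match. Arrowheads are TGATGNAA matches in 9 genes and point along the strand of the match, and the circle is the TGACGTCA match of PPP1R15A, between -209 in CHAC1 and 45 in SLC3A2.

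As a group, the ATF4 targets had slightly higher signals after CCAR2 silencing, but no single one passed the test in the fit without pairing. Of the 33 genes with a probe, 31 were tested. ALDH1L2, a mitochondrial folate enzyme, and STC2, a secreted glycoprotein, were detected in no array and were left out by the filter. Of the 31, 29 had a log2 fold change (siCCAR2 over siLUC) above 0 and 2 below, against 50.9% above 0 among all 12013 genes tested. With median scaling in place of quantiles, which put the all-gene median at -0.11, 25 of 31 were above 0 and ASNS, SLC1A4, SLC1A5 and CEBPB turned below it (24 of 31 with each gene's probe kept, where ATF4 turned too). The median was 0.21 over the 31 genes and 0.00 over all genes. CHAC1 and FGF21 are counted among the 29 but passed the filter through siCCAR2 array F alone. With these set to 0 the median of the 31 was 0.19. Among the 29 genes detected in at least 3 arrays, 27 were above 0, with a median of 0.20. A gene was called where its fold was 1.5 or more and its limma adjusted p no higher than 0.05. By this rule 0 of 31 genes were called, against 0.025% of all genes (3 of 12013, with 0.00832% called as higher), and the adjusted p of the 31 ran between 0.747 and 0.988. At an unadjusted limma p under 0.05, 2 genes were higher and 0 lower, against 3.49% higher and 3.01% lower among all genes. The siCCAR2 arrays lay wholly above the siLUC arrays for 2 of 31 genes, NUPR1 and SESN2, and wholly below for none, against 6.35% and 5.68% of all genes, so that the share of separated genes was near that of the array as a whole. For such a single gene the exact two-sided permutation p of 3 against 3 arrays cannot go below 0.1.

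**Figure D2:**
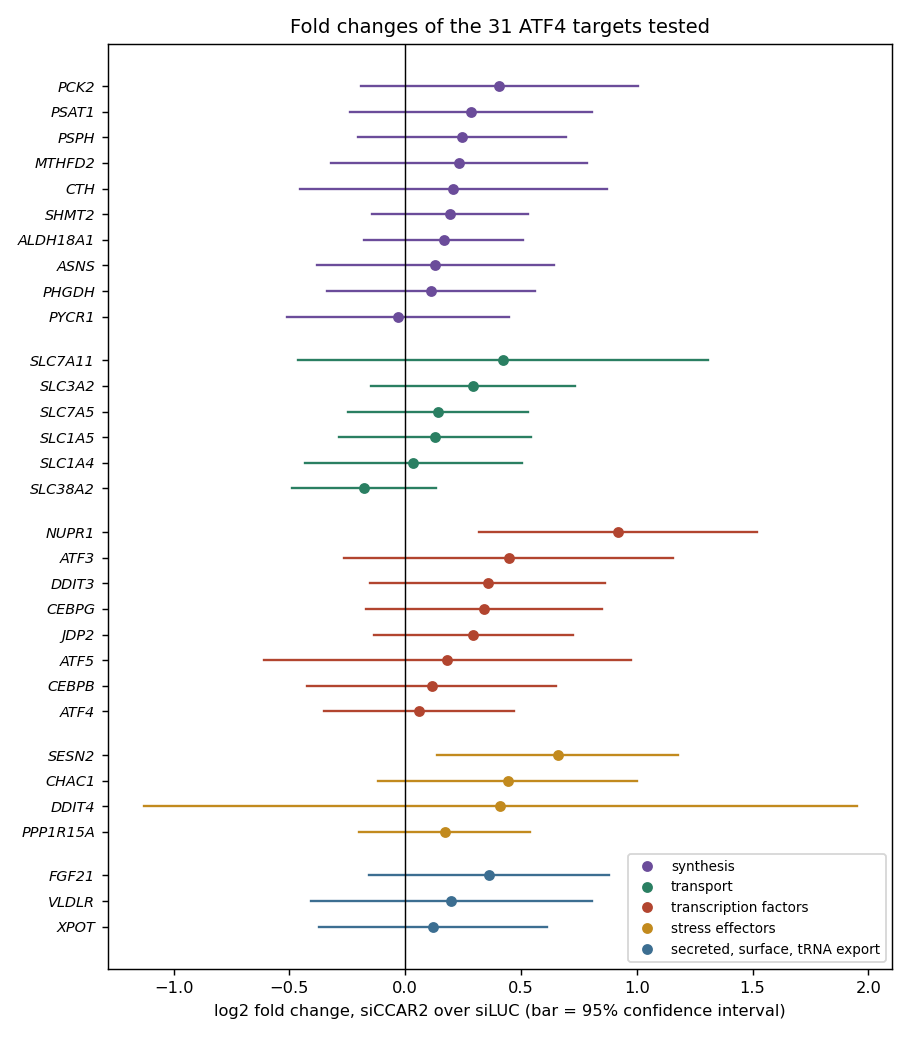
Log2 fold change, siCCAR2 over siLUC (x axis; points, with bars for the 95% confidence interval of limma), of the 31 ATF4 targets tested, in groups by role (colours). The points lie between -0.18 for SLC38A2 and 0.92 for NUPR1, 29 of them right of 0, and only the intervals of NUPR1 and SESN2 lie wholly above 0. CHAC1 and FGF21, detected in siCCAR2 array F alone, are drawn at fitted values, although no fold is given for them.

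The shift of the group was carried unevenly by the arrays. Array F, of siCCAR2 cells, was the highest of the 6 for 21 of 31 genes (67.7%), against 13.5% of all genes. CHAC1 and FGF21 are among the 21, but they passed the filter through this array alone. Array A, of siLUC cells, was the lowest for 14 of 31, against 1789 of all 12013 genes. Set against each gene's mean of the 6 arrays, the median of the 31 genes was -0.07 in D, 0.05 in E and 0.48 in F among siCCAR2 arrays, and -0.31 in A, 0.03 in B and -0.11 in C among siLUC arrays. Over all genes these medians lay between -0.01 and 0.01. Array F also had the lowest median bead signal of the 6 (105.931) and the lowest summed signal, with 39.5% of probes detected, and its part in the result was not tested beyond its removal. Without array F, 21 of 29 tested genes had a value above 0 and the median was 0.11. The 8 below 0 were then SLC38A2 and 7 genes that had been above it with all arrays, ASNS, PHGDH, CTH, SLC1A4, CEBPB, DDIT4 and VLDLR. PYCR1 is missing from the 8 because another of its probes was chosen there, at 0.31. The PYCR1 probe used with all arrays gave -0.19 without array F. Without array A the median was 0.13 with 28 of 31 above 0, whereas without any one of the other arrays it was between 0.25 and 0.35.

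**Figure D3:**
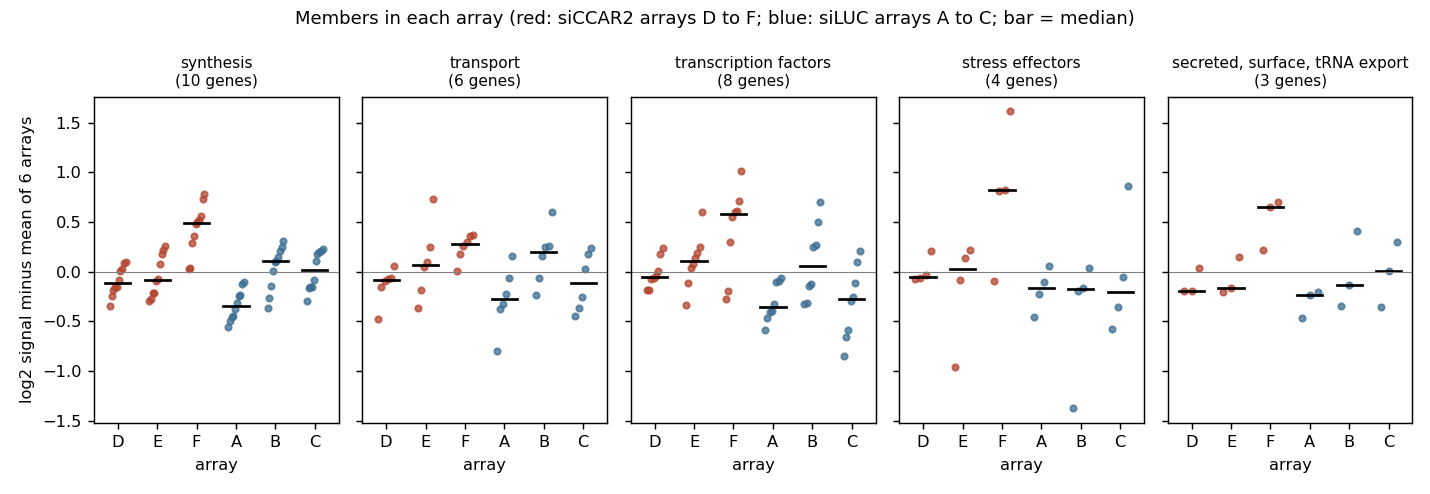
Log2 signal of each gene minus its mean over the 6 arrays (y axis) in siCCAR2 arrays D to F (red) and siLUC arrays A to C (blue), by role; points are genes and bars medians. Array F stands above the others in all 5 groups, with a median of 0.48 over the 31 genes, whereas array A has a median of -0.31.

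No label pairs the arrays. Taken in section order, however, each siCCAR2 array and the siLUC array of the same place deviated together from their group means over all genes (correlations of 0.615 for D and A, 0.665 for E and B and 0.440 for F and C), and the differences within these couples are therefore also given. Array D exceeded A for 30 of 31 genes (median 0.24) and F exceeded C for 30 of 31 (median 0.52), whereas E exceeded B for 13 of 31 only (median -0.03). Among all genes, 52.1%, 51.0% and 48.9% were higher in the siCCAR2 array of these couples. All 3 couples had a positive difference for 13 of 31 genes (41.9%), CHAC1 and FGF21 among them, against 20.2% of all genes. With the couples as a block in limma, 1.66% of all genes were called (0.999% as higher), and of the 31 ATF4 targets 1, NUPR1. In that fit 10 of 31 genes were higher at an unadjusted p under 0.05 and 0 lower, against 9.09% and 8.18% of all genes. CHAC1 and FGF21, which passed the filter through array F alone, are counted among the 10. The 5 other ways to couple the arrays called 0 to 15 genes and no ATF4 target. With them 2 or 3 of the 31 were higher at an unadjusted p under 0.05, and NUPR1 had limma adjusted p values of 0.196 to 0.9999. The section-order couples were picked partly by how these same arrays deviated, so every p with the block rests on that choice.

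**Figure D4:**
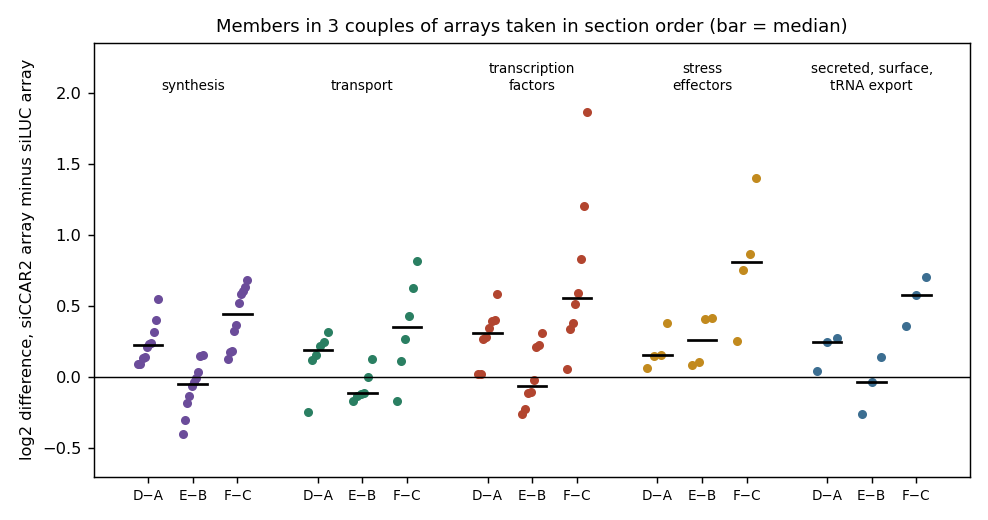
Log2 difference within each couple of arrays, siCCAR2 array minus siLUC array (y axis), for the 31 genes by role; points are genes and bars medians. D and A and F and C lie above 0 for 30 of 31 genes each, E and B for 13, and the 4 stress effectors lie above 0 in all 3 couples.

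The stress transcription factors had a median log2 fold change of 0.32, and all 8 tested were above 0. The largest difference of the 31 genes belonged to NUPR1, a small chromatin-associated protein induced by many kinds of cell stress. Its normalized log2 signal was 9.62, 9.63 and 10.46 in siCCAR2 arrays D, E and F, against 9.03, 9.32 and 8.60 in siLUC arrays A, B and C. The groups did not overlap, array F stood above the other siCCAR2 arrays, and array C was the lowest of the 6. The means were 9.90 ± 0.48 in siCCAR2 and 8.98 ± 0.36 in siLUC arrays (SD, n = 3 each), a fold of 1.89 (log2 fold change 0.92, SE 0.26, 95% confidence interval 0.32 to 1.52). In limma the adjusted p was 0.747 without the block and 0.0357 with it, at the same log2 fold change. NUPR1 therefore passed the call only where the arrays were coupled in section order. A further NUPR1 probe gave 8.81, 8.93 and 9.69 in siCCAR2 arrays D, E and F, against 8.39, 8.76 and 7.89 in siLUC arrays A, B and C. This is the same order of arrays, with a difference of 0.80 and limma adjusted p values of 0.771 without and 0.0456 with the block. With the block, NUPR1 missed the call under neqc background correction at a log2 fold change of 1.03 (limma adjusted p = 0.168). It did so under median scaling at 0.79 (limma adjusted p = 0.116) and under a trended and robust variance at 0.92 (0.252). Without arrays F and C the log2 fold change of NUPR1 was 0.45 (limma adjusted p = 0.199). Without D and A it was 1.09, and the limma adjusted p was 0.0764 with filter and probes chosen anew and 0.0255 with both kept.

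DDIT3, which encodes the pro-apoptotic factor CHOP, had signals of 8.89, 8.85 and 9.68 in siCCAR2 arrays D, E and F, against 8.87, 8.63 and 8.85 in siLUC arrays A, B and C. Array F was the only one that stood apart, and the groups overlapped (log2 fold change 0.36, SE 0.22, limma adjusted p = 0.824). JDP2, a bZIP repressor of AP-1, had 8.65, 8.78 and 8.94 in siCCAR2 arrays D, E and F, against 8.25, 8.90 and 8.35 in siLUC arrays A, B and C. Array B lay among the siCCAR2 arrays, and the log2 fold change was 0.29 (SE 0.19). ATF3, a bZIP factor that is switched on quickly by stress, had 9.37, 9.81 and 10.17 in siCCAR2 arrays D, E and F, against 8.98, 10.07 and 8.97 in siLUC arrays A, B and C. Its difference was 1.20 between F and C, 0.40 between D and A and -0.26 between E and B, and its log2 fold change was 0.45 (SE 0.31). CEBPG, a dimerization partner of ATF4, had a log2 fold change of 0.34 (SE 0.22) and was above 0 in all 3 couples (0.28, 0.22 and 0.51).

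ATF4 itself, whose activity is set mainly by translation, had 3 detected probes with small differences. The probe used for the gene gave 8.73, 8.53 and 8.29 in siCCAR2 arrays D, E and F, against 8.39, 8.76 and 8.24 in siLUC arrays A, B and C. The groups overlapped fully (log2 fold change 0.06, SE 0.18, 95% confidence interval -0.35 to 0.47, limma adjusted p = 0.965). The other ATF4 probes had differences of 0.09 (SE 0.14) and 0.24 (SE 0.17). ATF5, a relative of ATF4 that is also controlled by translation, had a log2 fold change of 0.18 with an SE of 0.35, since E and B were the highest arrays (11.07 and 11.18). CEBPB, another partner of ATF4, had a log2 fold change of 0.11 (SE 0.24), which turned to -0.13 without array F. ATF4 likewise turned to -0.05 without array D or array C.

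The 4 stress effectors had a median log2 fold change of 0.43, the highest of the groups on the fitted scale, and each was above 0 in all 3 couples. With CHAC1, whose level in siLUC arrays was not measured, set to 0, their median was 0.29 and lay below the 0.32 of the transcription factors. SESN2, a sestrin that senses leucine and restrains mTORC1, had signals of 7.75, 8.04 and 8.64 in siCCAR2 arrays D, E and F, against 7.59, 7.63 and 7.24 in siLUC arrays A, B and C. The groups did not overlap, although D lay close to A and B. The means were 8.14 ± 0.45 in siCCAR2 and 7.49 ± 0.21 in siLUC arrays (SD, n = 3 each), a fold of 1.58 (log2 fold change 0.66, SE 0.23, 95% confidence interval 0.14 to 1.18). The limma adjusted p of SESN2 was 0.767 without the block and 0.0795 with it, so that it did not pass either test. It passed with the block in 2 settings that left out a couple, without E and B, and without D and A where filter and probes were kept. CHAC1, an enzyme that degrades glutathione, was not well above background in any siLUC array and was detected in 1 siCCAR2 array, F. Its signals were 6.68, 6.67 and 7.56 in siCCAR2 arrays D, E and F, against 6.29, 6.59 and 6.70 in siLUC arrays A, B and C. Only array F stood apart. The siCCAR2 mean lay below the lowest detected signals of the siLUC arrays, so that no fold is given for CHAC1 (limma adjusted p = 0.805).

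**Figure D5:**
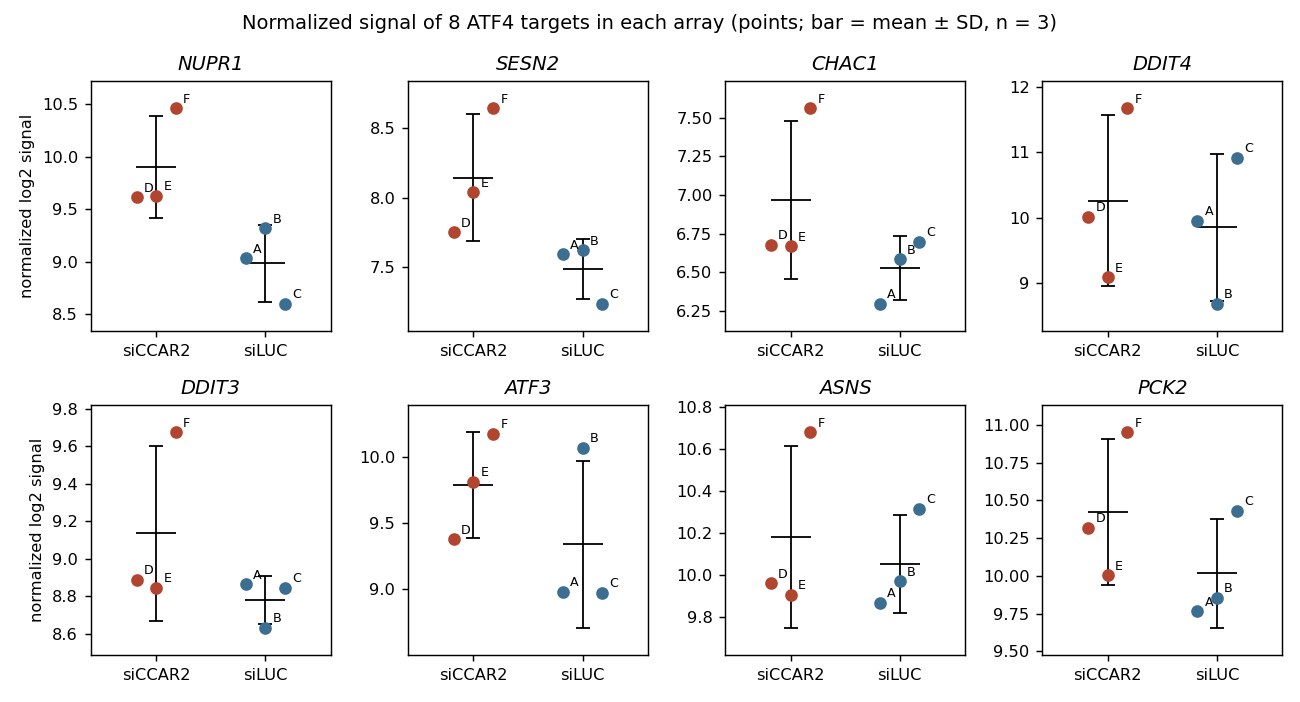
Normalized log2 signal (y axis) of 8 ATF4 targets in siCCAR2 arrays D, E and F (red, left) and siLUC arrays A, B and C (blue, right); points are arrays and bars the mean ± SD (n = 3). NUPR1 and SESN2 separate the groups, array F is the highest of the 6 in all 8 panels, and DDIT4 has its highest value in F (11.67) and its lowest in B (8.68).

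DDIT4, also known as REDD1, likewise restrains mTORC1 and varied most between arrays. Its signals were 10.02, 9.09 and 11.67 in siCCAR2 arrays D, E and F, against 9.95, 8.68 and 10.92 in siLUC arrays A, B and C. The arrays fell into the same order in both groups, with F and C the highest and E and B the lowest. The log2 fold change was 0.41 with an SE of 0.68 (limma adjusted p = 0.924), and the differences within couples were 0.07, 0.41 and 0.75. With the block, DDIT4 had a limma adjusted p of 0.145. PPP1R15A, the stress-induced subunit of the phosphatase that resets eIF2, had 11.75, 11.68 and 11.44 in siCCAR2 arrays D, E and F, against 11.60, 11.57 and 11.18 in siLUC arrays A, B and C. Here array F was not the highest but lay below siLUC arrays A and B, and the log2 fold change was 0.17 (SE 0.16, limma adjusted p = 0.861).

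Of the enzymes of amino acid and one-carbon synthesis, 10 were tested, 9 had a log2 fold change above 0 and the median was 0.20. PCK2, the mitochondrial phosphoenolpyruvate carboxykinase, had signals of 10.32, 10.00 and 10.95 in siCCAR2 arrays D, E and F, against 9.77, 9.86 and 10.43 in siLUC arrays A, B and C. Array C lay among the siCCAR2 arrays, while the 3 couples gave 0.55, 0.15 and 0.52. The log2 fold change of PCK2 was 0.41 (SE 0.26), with a limma adjusted p of 0.830 without and 0.117 with the block, and a further probe gave 0.46 (SE 0.20). SHMT2, which makes glycine from serine in mitochondria, had 12.44, 12.69 and 12.46 in siCCAR2 arrays D, E and F, against 12.20, 12.54 and 12.28 in siLUC arrays A, B and C. The groups overlapped through B, the shift was even across its couples (0.24, 0.16 and 0.18), and the log2 fold change was 0.19 (SE 0.15, limma adjusted p = 0.843).

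The serine pathway has 3 enzymes in the list. PHGDH, its first and rate-setting enzyme, had a log2 fold change of 0.11 (SE 0.20), and PSAT1, the second, of 0.29 (SE 0.23). PSPH, which takes the last step, had 8.16, 8.16 and 8.75 in siCCAR2 arrays D, E and F, against 7.92, 8.35 and 8.07 in siLUC arrays A, B and C. Again array F was the highest, with B above D and E, and the log2 fold change was 0.25 (SE 0.20, limma adjusted p = 0.846). MTHFD2, the mitochondrial folate dehydrogenase, had a log2 fold change of 0.23 (SE 0.24). CTH, which releases cysteine from cystathionine, had 0.21 (SE 0.29), and its value without array F was -0.13.

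ASNS, which makes asparagine and is among the classical ATF4 targets, gave unequal answers from its 2 probes. The probe used for the gene had 9.96, 9.91 and 10.68 in siCCAR2 arrays D, E and F, against 9.87, 9.97 and 10.31 in siLUC arrays A, B and C, with overlapping groups (log2 fold change 0.13, SE 0.23, limma adjusted p = 0.931). The other probe had 11.52, 11.61 and 12.53 in siCCAR2 arrays D, E and F, against 10.99, 11.50 and 11.52 in siLUC arrays A, B and C. Its groups touched without overlapping, and the difference was 0.55 (SE 0.27), with limma adjusted p values of 0.795 without and 0.0577 with the block. Proline synthesis showed the same disagreement. PYCR1, its last enzyme, had a log2 fold change of -0.03 (SE 0.21) at the probe used, while another of its probes gave 0.46 (SE 0.20, limma adjusted p = 0.771) and the last 0.08 (SE 0.15). ALDH18A1, which makes the proline precursor, had 0.17 (SE 0.15). Over the list, 9 genes had several tested probes and in 8 of them, all but PYCR1, every probe was above 0. Of the 43 detected probes, 41 were above 0, against 50.5% of the 16021 detected probes of the array, and the 7 others were never detected. The 41 include the probes of CHAC1 and FGF21, which passed the filter through array F alone. At an unadjusted limma p under 0.05, 4 of the 43 were higher (3.41% of all detected probes). By the call rule 0 passed without the block (0.0187% of all detected probes) and 2, both of NUPR1, with it (1.59%).

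Amino acid transporters had a median log2 fold change of 0.13, and 5 of 6 were above 0. SLC3A2, the heavy chain that carries several amino acid exchangers to the membrane, had signals of 11.33, 11.66 and 11.67 in siCCAR2 arrays D, E and F, against 11.08, 11.65 and 11.05 in siLUC arrays A, B and C. Array B lay level with E and F, and the log2 fold change was 0.29 (SE 0.19, limma adjusted p = 0.832). SLC7A11, the cystine importer that pairs with SLC3A2, had 8.11, 9.31 and 8.95 in siCCAR2 arrays D, E and F, against 7.79, 9.19 and 8.14 in siLUC arrays A, B and C. Arrays E and B were the highest of their groups, and the 3 couples were above 0 (0.32, 0.13 and 0.81). Its log2 fold change was 0.42 (SE 0.39), with a limma adjusted p of 0.858 without and 0.139 with the block.

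SLC7A5, the leucine exchanger, had a log2 fold change of 0.14 (SE 0.17). The neutral amino acid carriers SLC1A5 and SLC1A4 had 0.13 (SE 0.18) and 0.04 (SE 0.21). SLC38A2, a sodium-coupled importer of small neutral amino acids, was the lowest of the 31 genes. Its signals were 12.09, 11.99 and 12.19 in siCCAR2 arrays D, E and F, against 12.34, 12.11 and 12.36 in siLUC arrays A, B and C. The groups overlapped only through B, and the 3 couples were below 0 (-0.25, -0.12 and -0.17). The log2 fold change was -0.18 (SE 0.14, 95% confidence interval -0.49 to 0.13, limma adjusted p = 0.841).

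Of the secreted, surface and tRNA export genes, 3 were tested and all had fitted values above 0. Their median was 0.20 and became 0.12 with FGF21 set to 0. Without array F, where FGF21 was no longer tested, the median of VLDLR and XPOT was -0.02. FGF21, a stress hormone of energy metabolism, was not well above background in any siLUC array and was detected in array F alone. Its signals were 6.74, 6.50 and 7.40 in siCCAR2 arrays D, E and F, against 6.49, 6.36 and 6.70 in siLUC arrays A, B and C. Here too array F stood apart. The siCCAR2 mean of this and of a second FGF21 probe, also detected in array F alone, lay below the lowest detected signals of the siLUC arrays, and no fold is given (limma adjusted p = 0.824 for the probe used). VLDLR, a lipoprotein receptor, had 8.34, 8.36 and 9.18 in siCCAR2 arrays D, E and F, against 8.06, 8.40 and 8.83 in siLUC arrays A, B and C (log2 fold change 0.20, SE 0.27). XPOT, the exportin that carries tRNA out of the nucleus, had 8.63, 8.97 and 9.04 in siCCAR2 arrays D, E and F, against 8.59, 9.23 and 8.46 in siLUC arrays A, B and C (log2 fold change 0.12, SE 0.22). The groups overlapped for both, with limma adjusted p values of 0.905 for VLDLR and 0.934 for XPOT.

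How genes with the C/EBP-ATF core in their promoter window compared by size depended on CHAC1 and FGF21 and on the ASNS probe. The 9 genes with a match all had fitted values above 0. Their median was 0.29 on the log2 scale, with SLC1A4 the lowest at 0.04 and ATF3 the highest at 0.45. They include CHAC1 and FGF21, detected in siCCAR2 array F alone, for which no fold is given. With these set to 0, the middle gene of the 9 was ASNS at 0.13, below the median of genes without a match. That middle value depends on the ASNS probe used, since the other ASNS probe gave 0.55. Of the 17 tested genes with a window and no match, 16 were above 0, with a median of 0.18, and the 5 tested genes without a window had a median of 0.25. No test was run on these groups of genes.

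Neighbouring pathways give the setting, beside all genes tested, of which 50.9% were above 0 with a median of 0.00. Upstream of ATF4, 16 of 17 genes for eIF2, its kinases and its exchange factor eIF2B were tested, 9 were above 0 and the median was 0.04. PPP1R15B, the constitutive subunit of the eIF2 phosphatase and the paralog of PPP1R15A, had 7.43, 7.32 and 7.40 in siCCAR2 arrays D, E and F, against 7.75, 7.62 and 7.75 in siLUC arrays A, B and C. The groups did not overlap, with siCCAR2 lower (log2 fold change -0.32, SE 0.13, limma adjusted p = 0.767). The exchange factor subunits EIF2B5 and EIF2B1 had log2 fold changes of 0.23 (SE 0.16) and 0.22 (SE 0.15), and DELE1, which relays mitochondrial stress, 0.15 (SE 0.13). None of these 16 genes was called without or with the block.

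A second set of ATF4 targets, not among the 34 genes, had the same direction more often than not. Of 16 tested, 12 were above 0, against 50.9% of all genes, with a median of 0.18. With the block 3 of the 16 were called as higher, against 0.999% of all genes, and none without it, against 0.00832%. GDF15, a stress cytokine, had 8.10, 7.45 and 9.67 in siCCAR2 arrays D, E and F, against 7.47, 6.67 and 7.95 in siLUC arrays A, B and C. Its groups overlapped, and it was not detected in array B. The log2 fold change was 1.04 (SE 0.52, 95% confidence interval -0.15 to 2.23, limma adjusted p = 0.79 without and 0.00492 with the block). TRIB3, a pseudokinase that feeds back on ATF4, had a log2 fold change of 0.82 (limma adjusted p = 0.767 without and 0.0137 with the block), and its groups did not overlap. INHBE, an inhibin chain, had 0.76 (limma adjusted p = 0.767 without and 0.0368 with the block). GADD45A, a growth arrest gene, had 0.49 (SE 0.23) and SQSTM1, the autophagy receptor p62, 0.32 (SE 0.15).

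Paralogs of the 34 genes that are not in the list were more evenly spread, with 13 of 25 above 0, a median of 0.03 and 0 called without or with the block. At an unadjusted limma p under 0.05 without the block, 1 paralog, CEBPD, was higher and 1, PPP1R15B, lower, against 3.49% and 3.01% of all genes. CEBPD had a log2 fold change of 0.48 (SE 0.20, limma adjusted p = 0.767), SESN1 0.31 (SE 0.16) and SHMT1, the cytosolic counterpart of SHMT2, -0.40 (SE 0.18). The other arms of the unfolded protein response, read through 15 targets of ATF6 and XBP1, had 5 of 15 above 0 and a median of -0.02. Among them CALR, an endoplasmic reticulum chaperone, had 0.33 (SE 0.15), DNAJB9 0.26 (SE 0.15), HYOU1 -0.20 (SE 0.15) and SDF2L1 0.16 (SE 0.18), and 0 were called without or with the block.

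Lists of 2 further stress regulators, which share inducers with ATF4, were also above 0 in most members. For NRF2, the oxidative stress factor, 8 of 10 targets were above 0 with a median of 0.21, and 0 were called without or with the block. TXNRD1 had a log2 fold change of 0.45 (SE 0.43), SRXN1 0.41 (SE 0.35), HMOX1 0.38 (SE 0.22) and PGD 0.23 (SE 0.13). For p53, 11 of 12 targets were above 0 with a median of 0.35. At an unadjusted limma p under 0.05 without the block 4 were higher and 1 lower, against 3.49% and 3.01% of all genes. With the block CDKN1A, the cell cycle inhibitor p21, was called (log2 fold change 0.59, limma adjusted p = 0.0245), as was GDF15, which is in this list too. Of all genes, 0.999% were called as higher with the block. TNFRSF10B is likewise in this list and in the second set of ATF4 targets, and SESN1 is also counted among the paralogs. TP53I3 had 0.51 (SE 0.21), RRM2B 0.39 (SE 0.15) and ZMAT3 0.37 (SE 0.15). All 3 couples were above 0 for 10 of the 12 p53 targets and for 13 of the 31 ATF4 targets, against 20.2% of all genes. Array F was the highest for 6 of the 12 p53 targets and 21 of the 31 ATF4 targets, against 13.5% of all genes. Both ATF4 counts include CHAC1 and FGF21, which passed the filter through array F alone.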

How the data were processed

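RNA of 3 siCCAR2 and 3 siLUC samples was hybridized to bead arrays. For each probe the authors deposited a linear bead intensity before normalization and a detection p-value. Their normalized intensity table was deposited as well and served as an alternative. BeadStudio 3.8 is named in the submitters' processing notes and GenomeStudio in the methods, and both sources also name different extraction and labelling kits. Of 47321 probes, 30112 carry 1 gene symbol, 8 several and 17201 none. Symbols came from the platform annotation, where 39 were not found by gene identifier.

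No background was subtracted. The log2 of each signal was taken and arrays were brought to common quantiles. The robust spline normalization of the methods was not run. The filter kept the 16021 single-symbol probes that reached a detection p-value under 0.01 on any array. Each gene was represented by its most often detected probe, ties going to the highest interquartile range, which left 12013 genes. Conditions were compared in R 4.3.3 by the moderated test of limma 3.58.1 (lmFit, eBayes). P-values were adjusted over all genes by Benjamini-Hochberg, and a call needed a fold of 1.5 or more and an adjusted p no higher than 0.05. The fit was tested on simulated data with independent noise in each array. Normalization and shared deviations of coupled arrays were not part of that simulation. A probe not above background in a group has only a bound, taken at the lowest detected signal of each array, and no fold is given where that bound does not exceed 1. The number of arrays limits the precision.

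No label pairs the arrays. The section-order block (D with A, E with B, F with C) was run because a supplementary sheet is named as paired and because these couples deviated together over all genes. That pairing was chosen with its results known. Values in every array are given for the 3 genes of smallest p in each group and for any gene with an unadjusted p under 0.05 or a call with the block. Those of ATF3, ATF4, ASNS, DDIT4, PPP1R15B and GDF15 were added after their values were seen. Other lists give their 4 genes of smallest p and any called gene. The members and lists were chosen with earlier results of these data known. Promoter windows are those of RefSeq on GRCh38.p14, searched with Python 3.11.15. Alternatives tried were the deposited normalized table, neqc (offset 16), cyclic loess, median scaling, other probe and detection rules, a trended and robust variance, array weights, no fold threshold, and leaving out each array.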

Additional observations from a re-analysis of the deposited data

How the results depend on the processing

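With the replicate block 200 genes were called and 1 of the 31 ATF4 targets, against 3 and 0 without it. Other settings without the block called 0 genes under neqc, under median scaling and when each gene took its brightest probe (755, 522 and 709 at an unadjusted limma p under 0.05) and 18 with array weights (2230). Leaving out 1 array at a time called 0 to 7 genes (367 to 2015 at an unadjusted p under 0.05) and no ATF4 target. Combinations with the block, added after seeing the data, called 68 genes with neqc, 63 with median scaling, 197 with the deposited table, 204 with cyclic loess and 172 with a trended and robust variance. Of the ATF4 targets, 1 was called with the deposited table and with cyclic loess. Without the couple D and A 71 genes were called, without F and C 171, and without E and B 509 with 6 ATF4 targets (NUPR1, CHAC1, SESN2, ATF3, FGF21 and PYCR1). Filter and probe per gene were chosen anew in these settings. With both kept as with all arrays, FGF21 and PYCR1 were not called without E and B (502 genes, 4 ATF4 targets), NUPR1 and SESN2 were called without D and A (115 genes), and 0 ATF4 targets without F and C (171). CCAR2 missed the threshold with neqc (limma adjusted p = 0.103), median scaling (0.0597) and brightest probes (0.0596), and without any 1 array but B (0.0920 to 0.422).

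The count of ATF4 targets above 0 and their median, 0.09 to 0.42, kept their direction in every setting. Median scaling shifted the all-gene median to -0.11 and gave 25 of 31 above 0 and a median of 0.09. It turned ASNS (-0.0089), SLC1A4 (-0.084), SLC1A5 (-0.014) and CEBPB (-0.0015), with or without the block, and, at the probe used with all arrays, ATF4 (-0.039). PYCR1 turned to 0.46 with brightest probes, which takes another of its probes, to 0.27 with array weights, and with the block to 0.43 without D and A and to 0.76 without E and B. In both of these another probe was chosen too, and the probe used with all arrays gave -0.11 and 0.16. Leaving out 1 array at a time gave ranges across 0 for PYCR1 (-0.22 to 0.64), ASNS (-0.12 to 0.64), PHGDH (-0.037 to 0.28), CTH (-0.13 to 0.40), SLC1A4 (-0.14 to 0.22), SLC1A5 (-0.027 to 0.24), ATF4 (-0.054 to 0.21), ATF5 (-0.099 to 0.58), CEBPB (-0.13 to 0.31), DDIT4 (-0.30 to 0.99), VLDLR (-0.079 to 0.39) and XPOT (-0.029 to 0.35), and for the median of the secreted, surface and tRNA export genes (-0.020 to 0.39). The upper ends of PYCR1 and ASNS came with a change of probe and were 0.12 and 0.27 with the probe used with all arrays. The lower end for the secreted, surface and tRNA export genes came without array F, where FGF21 was not tested. With the block, leaving out D and A gave -0.0085 for SLC1A4 and -0.086 for ATF4, and leaving out F and C gave -0.0073 for SLC7A5, -0.0043 for SLC1A4, -0.0017 for CEBPB and -0.11 for XPOT. The cause of these changes was not tested. Signals near background limit CHAC1 and FGF21, and 3 arrays a group limit every p.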
